A study of Rattus norvegicus with 48 samples.

Results

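The line by exercise interaction in young rats asks whether the muscle of the HCR and LCR lines responded differently to a run to exhaustion. It is the response of young HCR rats (exhausted minus rest) minus the response of young LCR rats (exhausted minus rest), computed for each gene on the log2 scale. It rests on 24 of the 48 arrays of the series, 6 in each of 4 groups, chosen by their labels alone: young HCR at rest, young HCR exhausted, young LCR at rest and young LCR exhausted. The labels name no transgene or drug, and the exhausted groups differ from the rest groups by the run. The tissue was the extensor digitorum longus (EDL), which lifts the toes and consists mainly of fast fibres, and its transcripts were read with the Affymetrix Rat Gene ST 2.1 design. The other 24 arrays hold the same groups of old rats.

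HCR (high capacity runner) and LCR (low capacity runner) rats descend from 1 founder stock by selection for opposite running capacity on a treadmill. The labels give the abbreviations, but neither running time, distance or speed, nor how soon after the run the muscle was taken. A line difference in the response and a difference in how long the rats ran therefore cannot be told apart.

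A bout of exercise changes muscle transcripts within minutes to hours. Contraction, calcium, cAMP, circulating glucocorticoids and falling insulin act on immediate early transcription factors such as the AP-1 proteins, on FoxO and glucocorticoid receptor targets that govern fuel choice and protein breakdown, and on secreted factors that act on capillaries. The lines are known as a model of inherited aerobic capacity, and differ in muscle oxidative capacity and capillary supply.

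Arrays of the same young group correlated at between 0.955 and 0.979, and 9558 genes passed the filter on low values, that is, a log2 value above 4.54 in at least 6 arrays. The 7 fast fibre markers measured, among them Myh4, Tnnt3 and Actn3, lay above 4.54 on 48 of 48 arrays, at between 11.8 and 13.5. These values cannot tell the EDL from other muscles with fast fibres. The 9 slow fibre markers measured also lay above 4.54 on every array, with Myh7 at between 4.94 and 11.6. Liver transcripts varied between arrays of a group, with Alb, the albumin gene, at between 4.30 and 12.4 on the young arrays. The mean of 19 liver markers ran from 4.07 to 8.18 in young HCR at rest, from 3.97 to 4.70 in young HCR exhausted, from 4.05 to 6.57 in young LCR at rest and from 3.92 to 5.16 in young LCR exhausted. With that mean as a covariate 38 genes passed the threshold for the interaction, and these held every gene called without it. For replicate 6 of young HCR at rest the title holds 2 animal numbers, and without this array 16 genes passed in place of 34.

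In the young interaction 34 of 9558 genes passed the threshold, an adjusted p below 0.05 by limma with Benjamini-Hochberg adjustment over all genes tested. This is 0.356% of the genes tested. Of these, 26 were higher in HCR (0.272% of all tested), that is, they rose more in HCR than in LCR, and 8 were lower in HCR (0.0837%). Among them were transcription factors (Maff, Junb, Hes1, Klf15), arrestin-like adaptors (Arrdc2, Arrdc3), the insulin receptor substrate Irs2, secreted proteins (Adamts9, Stc1) and receptors (Aplnr, Lpar6). The difference was at least 2-fold for 18 genes, 14 higher and 4 lower. Over all genes tested the median interaction was -0.01, and 47.3% of genes lay above 0. At an unadjusted p below 0.05 stood 685 genes (7.17%).

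**Figure D1:**
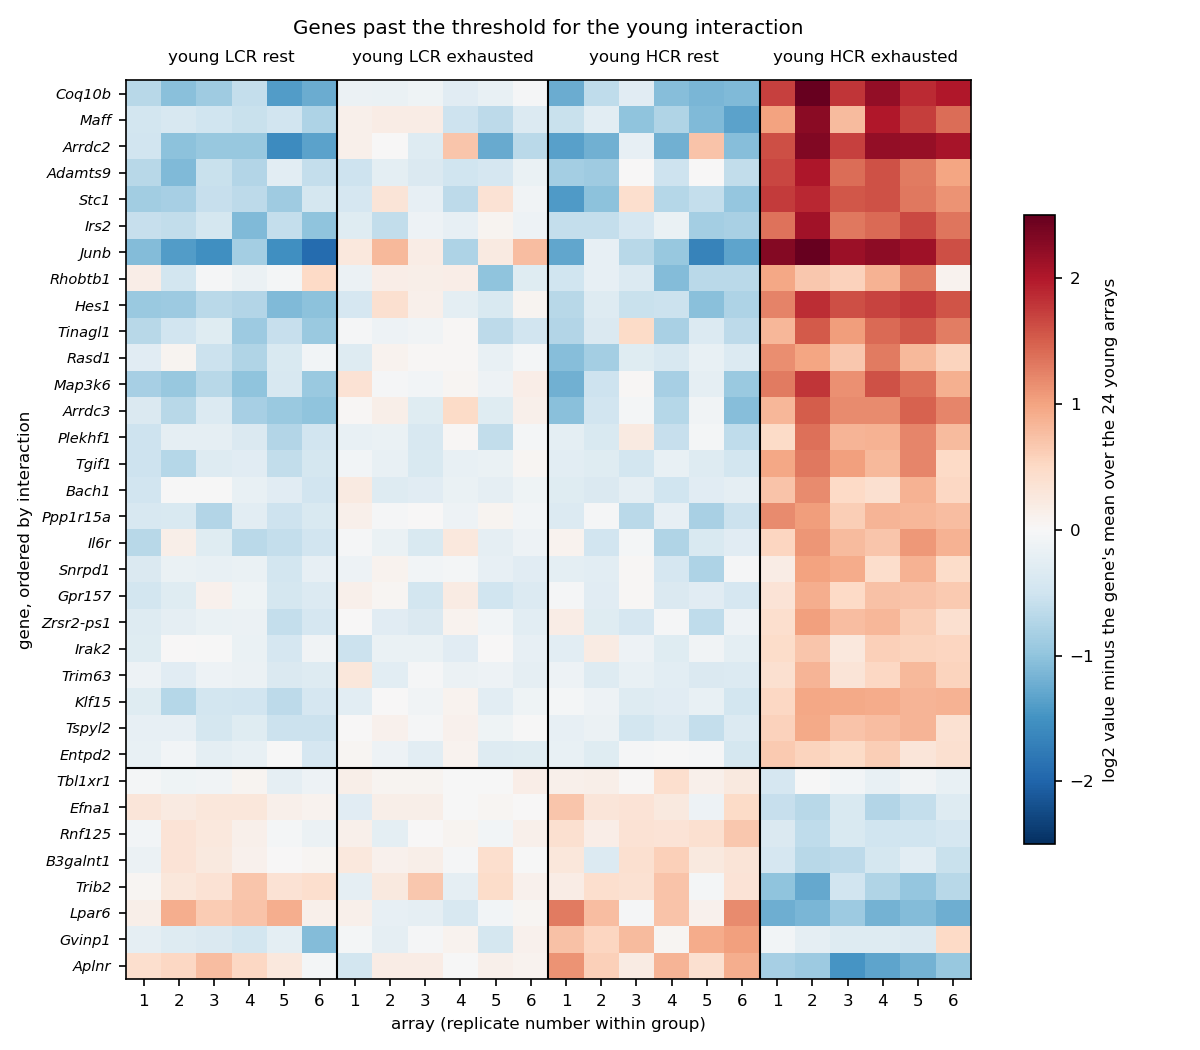
Log2 values of the 34 genes past the threshold on each of the 24 young arrays, minus the mean of each gene over these arrays, with red above and blue below that mean. Genes are ordered by their interaction, and the line separates the 26 higher in HCR from the 8 lower. The 6 arrays of young HCR exhausted stand apart from the other 18. The mean of the 26 higher genes is 0.918 to 1.43 there and below 0 on every other array. The same arrays chose the genes, so that this separation describes the choice and supports nothing.

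The form of the interaction was nearly the same in all 34 genes. Each passed the threshold for the response in young HCR, and each had the larger response in HCR. In HCR the run changed 830 genes, 461 up and 369 down (8.68% of all tested). In LCR 90 genes changed, 76 up and 14 down (0.942%), and both sets of responses enter the interaction, so that these counts describe it and do not support it. Of the 34, 27 passed in HCR only. The other 7 passed in both lines in the same direction: Junb, Hes1, Map3k6, Arrdc3, Klf15, Tspyl2 and Lpar6. None passed in opposite directions, and 5 genes (Rhobtb1, Irak2, Tbl1xr1, B3galnt1 and Gvinp1) had an LCR change of the opposite sign that did not pass. The median response of the 26 higher genes was 1.32 in HCR and 0.34 in LCR, and that of the 8 lower genes was -0.86 in HCR and -0.13 in LCR.

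After the run HCR and LCR differed in 485 genes (5.07%), 363 of them higher in HCR, and at rest in 145 genes (1.52%), 110 of them higher in HCR. After quantile normalization 276 were higher and 198 lower after the run, and 47 were higher and 47 lower at rest. Of the 34 interaction genes, 32 differed after the run and not at rest. Gvinp1 differed at rest and not after the run, and Tbl1xr1 in neither state. These arrays are the ones that chose the genes, so that the following counts describe the choice and support nothing. All 6 exhausted HCR arrays lay outside the range of the 6 exhausted LCR arrays for 31 of the 34 genes, the exceptions being Rhobtb1, Tbl1xr1 and Gvinp1, against 3.26% of all genes tested. At rest this held for 1 of the 34, Gvinp1, against 1.85% of all genes. Within HCR the exhausted and rest arrays did not overlap for 32 of the 34 (5.1% of all genes), and within LCR for 8 of the 34 (1.41%): Coq10b, Junb, Hes1, Map3k6, Arrdc3, Ppp1r15a, Klf15 and Tspyl2.

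**Figure D2:**
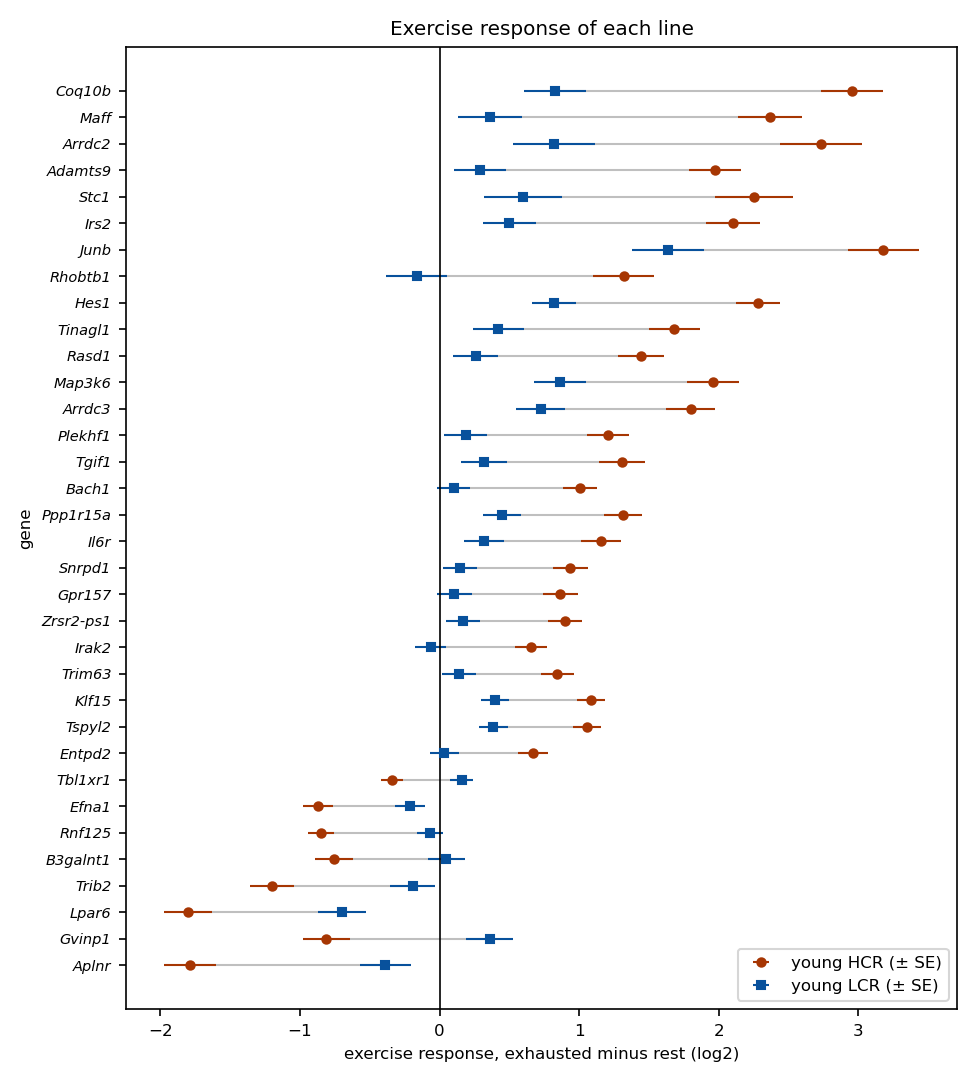
Exercise response (exhausted minus rest, log2, ± SE of the limma model, n = 6 arrays in each group) of the 34 genes in young HCR and young LCR. The distance between the points of a gene is its interaction. Every HCR point lies further from 0 than the LCR point, from Coq10b at 2.95 against 0.82 to Aplnr at -1.79 against -0.39.

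The largest interaction belonged to Coq10b, which codes for a mitochondrial protein that binds coenzyme Q and is needed for its use in respiration. In HCR its log2 values ran from 5.77 to 6.72 (median 5.93) at rest and from 8.72 to 9.69 (median 8.94) after the run. In LCR they ran from 5.62 to 6.41 (median 6.04) at rest and from 6.72 to 6.98 (median 6.85) after the run. The lines overlapped at rest, in neither line did rest and exhausted arrays overlap, and every exhausted HCR array exceeded every other young array. The HCR rise was 7.75-fold (2.95 ± 0.22) and the LCR difference, which did not pass, was 1.77-fold (0.82 ± 0.22, adjusted p = 0.0572). The interaction was 2.13 ± 0.31 (SE, limma), a 4.37-fold larger response in HCR (adjusted p = 0.000252). Coq10b was alone among the 10 measured genes of coenzyme Q synthesis and transport. The other 9, which were Pdss2, Coq2, Coq4 to Coq7, Coq8a, Coq8b and Coq9, had interactions between -0.14 (Coq8b) and 0.20 (Coq4), and the median of the list was 0.02.

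Promoter windows of the called genes were compared, higher and lower genes apart. These genes share a pattern because the interaction chose them, which is not evidence of shared regulation. A window is the 250 bases before the annotated start in RefSeq's GRCr8 assembly, and 21 of the 26 higher genes and 6 of the 8 lower genes had one. The cAMP response element half-site TGACG, on either strand, was present in 10 of the 21 higher windows, in 0 of the 6 lower windows and in 26.6% of the 7808 windows of all genes tested. The 10 genes are Coq10b, Il6r, Junb, Klf15, Maff, Plekhf1, Ppp1r15a, Rasd1, Snrpd1 and Tspyl2. The mean GC content was 64.4% for the higher windows, 59.7% for the lower and 59.1% for all tested, and the part of base composition in these shares was not tested. Shown are the windows of 3 higher genes that hold the half-site and of Rnf125, the lower gene with the smallest p. Each reads 5′ to 3′ on the strand of the gene, and capitals mark the half-site or its reverse complement.
Coq10b: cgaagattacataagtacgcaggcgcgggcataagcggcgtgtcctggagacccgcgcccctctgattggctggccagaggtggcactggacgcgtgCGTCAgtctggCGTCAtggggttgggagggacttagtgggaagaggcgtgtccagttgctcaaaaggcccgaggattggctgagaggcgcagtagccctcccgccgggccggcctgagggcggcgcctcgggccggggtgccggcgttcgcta
Maff: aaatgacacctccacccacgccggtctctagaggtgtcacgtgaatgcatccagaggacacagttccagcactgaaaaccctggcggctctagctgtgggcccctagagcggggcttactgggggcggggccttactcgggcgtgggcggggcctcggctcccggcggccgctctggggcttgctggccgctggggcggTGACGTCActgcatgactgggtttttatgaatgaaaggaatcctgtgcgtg
Rasd1: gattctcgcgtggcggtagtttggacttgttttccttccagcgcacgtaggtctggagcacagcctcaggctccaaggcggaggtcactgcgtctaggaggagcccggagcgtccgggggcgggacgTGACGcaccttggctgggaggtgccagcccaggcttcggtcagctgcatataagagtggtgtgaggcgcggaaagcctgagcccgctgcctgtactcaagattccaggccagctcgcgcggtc
Rnf125: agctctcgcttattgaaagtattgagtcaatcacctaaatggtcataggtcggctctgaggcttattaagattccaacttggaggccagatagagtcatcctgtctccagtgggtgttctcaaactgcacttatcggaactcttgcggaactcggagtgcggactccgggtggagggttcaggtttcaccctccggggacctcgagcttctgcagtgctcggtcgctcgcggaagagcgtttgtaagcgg

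These windows lie at chr9:64047918-64048167 (Coq10b, plus strand), chr7:112792537-112792786 (Maff, plus strand), chr10:45267683-45267932 (Rasd1, minus strand) and chr18:12528745-12528994 (Rnf125, plus strand), all in GRCr8. In Coq10b the sites begin 153 and 142 bases before the start. In Maff a pair of sites on opposite strands overlap, beginning 51 and 48 bases before the start, and in Rasd1 the site begins 123 bases before it. The Rnf125 window holds no such site. A match of letters describes the window and is not evidence of a bound factor. Of the other motifs searched on both strands, the glucocorticoid response element half-site AGAACA was in 2 of the 21 higher windows and 1 of the 6 lower (11.2% of all), and the metal response element TGCGCNC or TGCACNC in 6 and 1 (30.3% of all). The FoxO site TGTTTAC was in 2 higher windows (Junb and Trim63) and 2 lower windows (Efna1 and Trib2), against 2.09% of all, and the E-box CACGTG in 4 higher windows and 0 lower (8.06% of all). Motifs were searched one by one, and matches of different motifs may overlap.

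Among transcription factors, Maff had the largest interaction. It codes for a small Maf protein, a leucine zipper factor without an activation domain of its own that pairs with other factors. HCR values ran from 4.15 to 5.22 (median 4.62) at rest and from 6.28 to 7.75 (median 7.06) after the run, and LCR values from 4.71 to 5.10 (median 5.0) and from 4.83 to 5.68 (median 5.39). The exhausted HCR arrays lay above all others, while rest and exhausted LCR arrays overlapped. The interaction was 2.01 ± 0.33 (adjusted p = 0.000469, limma), with a rise of 2.37 ± 0.23 in HCR and a difference of 0.36 ± 0.23 in LCR that did not pass.

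Hes1 and Junb rose in both lines and more in HCR. Hes1 is a repressor of the basic helix-loop-helix class and a direct target of Notch. Its values ran from 6.17 to 6.89 (median 6.58) in HCR at rest, from 8.45 to 9.06 (median 8.86) in HCR exhausted, from 6.10 to 6.53 (median 6.29) in LCR at rest and from 6.79 to 7.61 (median 7.12) in LCR exhausted. No group of exhausted arrays overlapped its own rest arrays, and the exhausted HCR arrays exceeded the exhausted LCR arrays without overlap. The rise was 4.86-fold in HCR and 1.77-fold in LCR, with an interaction of 1.46 ± 0.22 (adjusted p = 0.000292). Of the 12 measured Notch pathway genes it was the one called. The receptors Notch1 to Notch4 lay between -0.12 (Notch3) and 0.12 (Notch1), and the ligand gene Jag1, which fell in HCR (-0.55 ± 0.12), had an interaction of -0.42 ± 0.16 that did not pass.

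Junb codes for a subunit of AP-1. Its values ran from 4.23 to 5.68 (median 4.78) in HCR at rest and 7.51 to 8.45 (median 8.07) in HCR exhausted, and from 3.96 to 5.04 (median 4.43) in LCR at rest and 5.12 to 6.70 (median 6.13) in LCR exhausted. Here too both lines rose without overlap, and HCR ended above LCR on every array. The LCR rest median of 4.43 lay below 4.54, the filter on low values, so that the LCR rise starts from low values. The rise was 9.06-fold in HCR and 3.11-fold in LCR (interaction 1.54 ± 0.36, adjusted p = 0.0395). This call was lost without any of 15 of the 24 arrays, with adjusted p-values of up to 0.0973.

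Many immediate early genes rose in both lines. Of 28 measured, 22 rose in HCR (4.82% of all genes tested) and 15 in LCR (0.795%). In 2, Maff and Junb, the interaction passed the threshold with HCR higher, against 0.272% of all genes. Maff alone passed without any of the 15 arrays on which the Junb call rested, and without young HCR rest replicate 2 there were 5, with Csrnp1, Klf10 and Nr4a2 added. The median interaction was 0.31, against -0.01 over all genes, with 20 of 28 above 0. Nr4a2, an orphan nuclear receptor, rose by 3.64 in HCR and by 1.79 in LCR, and its interaction of 1.85 ± 0.49 did not pass (adjusted p = 0.0829). Fos, the classical AP-1 partner of the Jun proteins, rose by 2.57 in HCR and 2.31 in LCR, with an interaction of 0.26 ± 0.62. The zinc finger factor gene Egr1 rose by 1.48 in HCR and 2.10 in LCR (-0.62 ± 0.55). Ccn1, which codes for a matricellular protein, passed in LCR (1.45 ± 0.29) and not in HCR (0.31 ± 0.29), and its interaction of -1.15 ± 0.41 did not pass (adjusted p = 0.371).

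Other regulators of transcription were called with smaller differences. Klf15, a zinc finger factor induced by glucocorticoids that acts in amino acid and lipid use, rose by 1.09 ± 0.10 in HCR and by 0.40 ± 0.10 in LCR (interaction 0.69 ± 0.14, adjusted p = 0.0136). Tgif1, a homeodomain corepressor of TGF-beta signalling, rose by 1.30 ± 0.16 in HCR, with an interaction of 0.98 ± 0.23 (adjusted p = 0.0395). Of the 16 TGF-beta and BMP genes measured it was the one called. The ligand gene Bmp2 rose in HCR (1.32 ± 0.20), with an interaction of 1.04 ± 0.29 that did not pass. Bach1, a repressor of haem oxygenase and antioxidant genes that haem inactivates, rose by 1.01 ± 0.12 in HCR, with 0.10 ± 0.12 in LCR (interaction 0.91 ± 0.17, adjusted p = 0.00449). Tbl1xr1, a subunit of nuclear receptor corepressor complexes, fell by 0.34 in HCR. Its interaction of -0.50 ± 0.11 was the smallest in size among the 34. Tgif1 did not pass when any of 14 arrays was left out, nor Tbl1xr1 for any of 7.

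**Figure D3:**
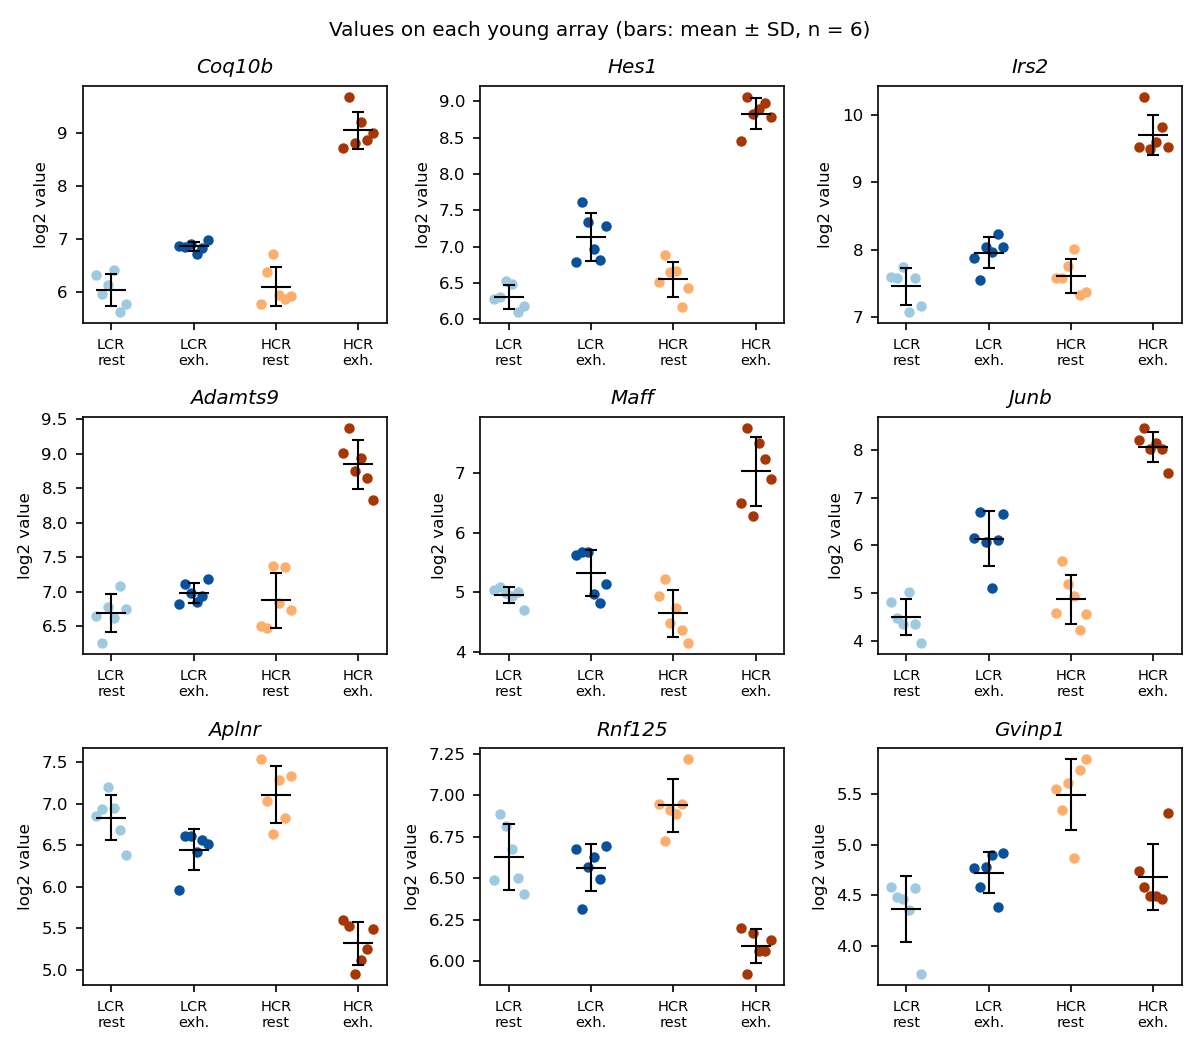
Log2 values of 9 of the 34 genes on each of the 24 young arrays, with the mean and SD of each group of 6. The same arrays chose the genes. In Coq10b, Hes1, Irs2, Adamts9, Maff and Junb the exhausted HCR arrays exceed all others, and in Aplnr and Rnf125 they lie below all others. In Gvinp1 the HCR rest arrays, at 4.87 to 5.85, lie above the LCR rest arrays instead.

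Of the 16 measured targets of glucocorticoids and FoxO, 5 were higher in HCR (Irs2, Klf15, Arrdc2, Arrdc3 and Trim63), against 0.272% of all genes tested, and 0 were lower. The median interaction was 0.68, against -0.01 over all genes, with 15 of 16 above 0. Called members numbered 2, Irs2 and Klf15, without young HCR exhausted replicate 2, young HCR rest replicate 6 or young LCR exhausted replicate 5. They numbered 3, these and Arrdc2, without young HCR exhausted replicate 5, young HCR rest replicate 4, young LCR exhausted replicate 3 or young LCR rest replicates 1 or 3. The run raised 14 of the 16 in HCR, against 4.82% of all genes tested, and 6 in LCR, against 0.795%. On the arrays the mean level of the list ran from 8.0 to 8.51 in HCR at rest, from 9.30 to 9.69 in HCR exhausted, from 7.81 to 8.17 in LCR at rest and from 8.22 to 8.77 in LCR exhausted. Earlier results of these data were known when the list was chosen.

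Irs2 codes for the adaptor that carries the signal of the insulin receptor to PI3-kinase, and FoxO factors raise its transcription when insulin is low. In HCR it ran from 7.32 to 8.01 (median 7.58) at rest and from 9.49 to 10.27 (median 9.56) after the run. In LCR it ran from 7.07 to 7.74 (median 7.58) and from 7.56 to 8.24 (median 8.01). The lowest exhausted HCR array, at 9.49, lay above the highest exhausted LCR array, at 8.24. The HCR rise was 4.29-fold, and the interaction was 1.60 ± 0.27 (adjusted p = 0.000778). It stood alone among the 14 measured genes of insulin and growth factor signalling. Insr, Igf1r, Akt1 and Akt2 lay between -0.09 and 0.04, and Irs1, its homologue, had an interaction of -0.41 ± 0.25 that did not pass.

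Arrdc2 and Arrdc3 are alpha-arrestins, membrane adaptors that recruit ubiquitin ligases to receptors and transporters. Arrdc2 ran from 6.30 to 8.36 (median 6.52) in HCR at rest and from 9.26 to 9.96 (median 9.78) in HCR exhausted, and from 6.07 to 7.16 (median 6.66) in LCR at rest and 6.39 to 8.35 (median 7.50) in LCR exhausted. Its exhausted HCR arrays were above all others, and 1 HCR rest array, at 8.36, lay level with the highest exhausted LCR array. The interaction was 1.92 ± 0.42 (adjusted p = 0.0214). Without young HCR exhausted replicate 2, young LCR exhausted replicate 5 or young HCR rest replicate 6 it did not pass (adjusted p up to 0.0566). Arrdc3 rose by 1.80 ± 0.17 in HCR and 0.73 ± 0.17 in LCR (interaction 1.07 ± 0.25, adjusted p = 0.0324), and its call was lost without any of 9 arrays (adjusted p up to 0.0858).

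Trim63 codes for MuRF1, the muscle ubiquitin ligase that marks myofibrillar proteins for breakdown. It ran from 9.92 to 10.15 (median 9.98) in HCR at rest and 10.60 to 11.12 (median 10.82) in HCR exhausted, and from 9.91 to 10.15 (median 10.06) and 10.02 to 10.55 (median 10.13) in LCR. The exhausted HCR arrays were the highest, by a narrow margin over the highest exhausted LCR array. The interaction was 0.71 ± 0.17 (adjusted p = 0.0466), and the call was lost without any of 18 arrays. Fbxo32, which codes for atrogin-1, the other ligase induced in atrophy, had an interaction of 0.01 ± 0.19. Ddit4, an inhibitor of mTORC1, rose in both lines, by 2.51 in HCR and 1.24 in LCR, and its interaction of 1.26 ± 0.40 did not pass (adjusted p = 0.232). Per1, a clock gene that glucocorticoids induce, rose by 2.04 and 1.09 (0.95 ± 0.37, adjusted p = 0.476).

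Adamts9 codes for a secreted metalloprotease that cleaves proteoglycans of the extracellular matrix. HCR ran from 6.47 to 7.37 (median 6.79) at rest and from 8.33 to 9.38 (median 8.85) after the run, and LCR from 6.25 to 7.09 (median 6.70) and from 6.83 to 7.19 (median 6.96). The exhausted HCR arrays were separate from all others, while LCR overlapped between rest and run. The HCR rise was 3.92-fold, and the interaction was 1.68 ± 0.26 (adjusted p = 0.000294). Stc1, a secreted glycoprotein hormone, ran from 3.84 to 5.66 (median 4.41) in HCR at rest and 6.38 to 7.13 (median 6.82) in HCR exhausted, and from 4.35 to 4.81 (median 4.51) and 4.60 to 5.62 (median 5.10) in LCR. Again the exhausted HCR arrays were above all others. Both rest medians of Stc1 lay below 4.54, the filter on low values, so that its rise starts from low values. Its interaction was 1.65 ± 0.39 (adjusted p = 0.0399), lost without any of 18 arrays. Tinagl1, a matricellular protein of basement membranes, rose by 1.68 ± 0.18 in HCR, with 0.42 ± 0.18 in LCR (interaction 1.26 ± 0.26, adjusted p = 0.0125). None of the 24 extracellular matrix genes measured (median 0.08) and none of the 12 secreted muscle factors measured (median 0.19) was called.

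Of the lower genes Aplnr had the largest interaction. It codes for the apelin receptor, a G-protein-coupled receptor of endothelial cells. HCR ran from 6.63 to 7.54 (median 7.16) at rest and from 4.95 to 5.6 (median 5.37) after the run, and LCR from 6.39 to 7.2 (median 6.90) and from 5.97 to 6.62 (median 6.54). Every exhausted HCR array lay below every other young array. The fall was 3.45-fold in HCR (-1.79 ± 0.19), with -0.39 ± 0.19 in LCR, and the interaction was -1.40 ± 0.26 (adjusted p = 0.00441). Apln, the gene of its ligand, did not change past the threshold in HCR (-0.31 ± 0.13) or in LCR (-0.19 ± 0.13).

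In whole muscle, fewer cells of a type and less RNA per cell cannot be told apart. Of the 9 endothelial markers measured of 12, none had an interaction past the threshold, and their median was -0.02. Their mean level ran from 7.41 to 7.63 in HCR at rest, from 7.53 to 7.80 in HCR exhausted, from 7.26 to 7.52 in LCR at rest and from 7.28 to 7.52 in LCR exhausted. Rest and exhausted HCR arrays overlapped for this mean, and the part of endothelial cell number in the fall of Aplnr was not tested. Of the 9, 4 had interactions above 0, the highest 0.75 ± 0.28 for Cldn5, which codes for claudin-5 of tight junctions, and the lowest was -0.22 ± 0.15 for Tek, the angiopoietin receptor gene. In HCR Cldn5 and Esam rose, Tek and Tie1 fell, and the other 5 did not pass.

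Lpar6 codes for a G-protein-coupled receptor for lysophosphatidic acid. Its values ran from 7.31 to 8.63 (median 8.07) in HCR at rest and 6.11 to 6.42 (median 6.17) in HCR exhausted, and from 7.46 to 8.25 (median 8.01) in LCR at rest and 6.93 to 7.47 (median 7.19) in LCR exhausted. Every exhausted HCR array lay below every other young array. Both lines fell, HCR 3.48-fold and LCR 1.62-fold, and the interaction was -1.10 ± 0.24 (adjusted p = 0.0221). It was lost without young HCR rest replicate 6 or young LCR rest replicate 1 (adjusted p up to 0.0618). Efna1, an ephrin ligand of Eph receptors, fell by 0.87 in HCR, with an interaction of -0.66 ± 0.15 (adjusted p = 0.0308), lost without any of 10 arrays. Rgs4, which shortens G-protein signals, fell by 1.35 in HCR, and its interaction of -0.76 ± 0.23 did not pass (adjusted p = 0.202). Of the 17 receptors and RGS genes of vessel and muscle measured, 0 were higher and 2 lower. Over all genes tested these shares were 0.272% and 0.0837%. The median of the list was -0.10, and Aplnr is in this list and in the next. Of the 20 genes of vascular growth and endothelial signalling measured, 2 were higher (Adamts9 and Stc1) and 2 lower (Aplnr and Efna1), with a median of 0.03. Of these 4, Adamts9 and Aplnr alone passed without young HCR exhausted replicates 2, 4 or 5, young HCR rest replicates 1 or 6, young LCR exhausted replicate 3 or young LCR rest replicate 6.

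Several signalling proteins were called. Rasd1, a Ras-like G protein first found as a dexamethasone-induced gene, ran from 4.44 to 5.30 (median 5.12) in HCR at rest and 6.05 to 6.80 (median 6.40) in HCR exhausted, and from 4.75 to 5.56 (median 5.16) and 5.18 to 5.59 (median 5.48) in LCR. The exhausted HCR arrays lay above all others, and its interaction was 1.18 ± 0.23 (adjusted p = 0.00669). Rhobtb1 ran from 6.5 to 7.37 (median 6.99) in HCR at rest and 7.65 to 8.87 (median 8.35) in HCR exhausted, and from 7.12 to 8.08 (median 7.53) and 6.57 to 7.74 (median 7.57) in LCR. It was the higher gene whose exhausted arrays overlapped between the lines: HCR minus LCR was -0.58 ± 0.22 at rest, which did not pass, and 0.91 ± 0.22 after the run, which did. Its interaction was 1.48 ± 0.31 (adjusted p = 0.0136).

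Map3k6, a MAP kinase kinase kinase, rose by 1.96 ± 0.19 in HCR and 0.86 ± 0.19 in LCR (interaction 1.09 ± 0.27, adjusted p = 0.0484). It was the least stable call with B3galnt1: each was lost without any of 19 arrays. The rest arrays of Map3k6 ran from 4.16 to 5.38 in HCR and from 4.34 to 4.95 in LCR. Both ranges span 4.54, the filter on low values. Plekhf1, which binds phosphoinositides on endosomes, rose by 1.21 ± 0.15 in HCR (interaction 1.02 ± 0.22, adjusted p = 0.016), and without young HCR exhausted replicate 2 its adjusted p was 0.051. Il6r, the alpha chain of the interleukin-6 receptor, rose by 1.15 ± 0.14 in HCR (interaction 0.84 ± 0.20, adjusted p = 0.0466, lost without any of 16 arrays). It was 1 of 17 measured genes of inflammatory and NF-kB signalling. Ptgs2, of prostaglandin synthesis, rose in both lines, by 2.30 in HCR and 1.36 in LCR, and its interaction of 0.95 ± 0.28 did not pass. Ppp1r15a directs protein phosphatase 1 to eIF2-alpha and so restores translation after stress. It rose by 1.31 ± 0.14 in HCR (interaction 0.87 ± 0.19, adjusted p = 0.0257) and was 1 of 15 measured genes of the amino acid stress response, whose median was 0.12. Its call was lost without any of 5 arrays.

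Rnf125 codes for a RING-type ubiquitin ligase. It ran from 6.72 to 7.22 (median 6.93) in HCR at rest and 5.92 to 6.20 (median 6.09) in HCR exhausted, and from 6.40 to 6.89 (median 6.59) and 6.31 to 6.69 (median 6.60) in LCR. The exhausted HCR arrays lay below all others and the LCR arrays overlapped. The interaction of -0.78 ± 0.13 had the smallest adjusted p of the lower genes (0.000778). Trib2, a pseudokinase that brings substrates to ubiquitin ligases, fell by 1.20 in HCR (interaction -1.01 ± 0.23, adjusted p = 0.0258, lost without any of 7 arrays). B3galnt1, a glycosyltransferase of globoside synthesis, fell by 0.75 in HCR (interaction -0.80 ± 0.19, adjusted p = 0.0399).

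Gvinp1 had another form. By its symbol it is a pseudogene of a family of very large interferon-inducible GTPases, and probes for members of such a family may also bind near-identical copies. HCR ran from 4.87 to 5.85 (median 5.58) at rest and from 4.46 to 5.31 (median 4.54) after the run, and LCR from 3.72 to 4.58 (median 4.47) and from 4.38 to 4.92 (median 4.78). Medians of 4.47 in LCR at rest and 4.54 in HCR exhausted lie at or near 4.54, the filter on low values. The HCR rest arrays lay above all LCR rest arrays, and after the run the lines overlapped. It fell by 0.81 in HCR, with 0.36 ± 0.17 in LCR, and the interaction was -1.17 ± 0.24 (adjusted p = 0.0112).

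Outside the rule for named genes, 7 of the 34 were added after their values were seen: Bach1 (above), Snrpd1, Gpr157, Zrsr2-ps1, Irak2, Tspyl2 and Entpd2. Snrpd1, an Sm protein of the spliceosome, had an interaction of 0.79 ± 0.18, and the orphan receptor gene Gpr157 one of 0.76 ± 0.18. Irak2, a kinase of interleukin-1 and Toll-like receptor signalling, rose by 0.65 ± 0.11 in HCR, with -0.06 ± 0.11 in LCR. Tspyl2, a nucleosome assembly protein, rose in both lines, by 1.06 in HCR and 0.39 in LCR. Entpd2, an ectonucleotidase, and Zrsr2-ps1, by its symbol a pseudogene whose probes may bind its relatives, had interactions of 0.63 ± 0.15 and 0.73 ± 0.17. Of these, Snrpd1 and Irak2 were lost without any of 4 arrays each, Gpr157 without any of 13, Entpd2 and Zrsr2-ps1 without any of 15 each, and Tspyl2 without young HCR exhausted replicate 2.

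Genes just outside the threshold had values much like those just inside. Hsph1, a cochaperone of the Hsp110 family, had an interaction of 0.72 ± 0.18 (adjusted p = 0.0504), Gadd45b, a growth arrest and stress gene, 1.29 ± 0.33 (0.0634), and P4ha1, a collagen prolyl hydroxylase subunit, 0.54 ± 0.14 (0.0634). The metallothionein gene Mt2A, which codes for a metal-binding protein, had the second largest difference of all genes named here, 2.07 ± 0.54, but also a large error (adjusted p = 0.0829). Its values ran from 3.65 to 4.69 (median 4.11) in HCR at rest and 6.64 to 7.92 (median 7.18) in HCR exhausted, and from 4.15 to 4.97 (median 4.42) and 4.72 to 6.73 (median 5.26) in LCR. It rose in HCR (3.06 ± 0.39), and its LCR difference of 0.99 ± 0.39 did not pass. Both rest medians of Mt2A lay below 4.54, the filter on low values, so that these differences start from low values.

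The 39 gene lists placed 18 of the 34 genes, in 11 lists, and the other 28 lists had no called member. Of these, the 25 with at least 5 members measured had medians between -0.27 and 0.54. For enzymes of energy metabolism the median was -0.01 for 19 genes of fatty acid oxidation, -0.04 for 14 of the citric acid cycle, -0.03 for 36 subunits of oxidative phosphorylation and -0.05 for 15 of glycolysis and glycogen, with 0 called in each. Pfkfb3, which sets the level of the glycolytic activator fructose 2,6-bisphosphate, rose in HCR (1.29 ± 0.27) with -0.04 ± 0.27 in LCR, and its interaction of 1.33 ± 0.38 did not pass (adjusted p = 0.123). Ppargc1a, the coactivator PGC-1 alpha of mitochondrial gene expression, did not pass in either line (-0.09 ± 0.14 in HCR, -0.01 ± 0.14 in LCR). Pdk4 and Ucp3, fasting genes under PPAR control, rose in HCR by 1.45 and 1.27, and their interactions of 1.16 ± 0.52 and 0.90 ± 0.54 did not pass. Of 22 heat shock proteins and cochaperones 9 rose in HCR, against 4.82% of all genes tested, and 0 in LCR, against 0.795%. None of the 22 had an interaction past the threshold (median 0.12).

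**Figure D4:**
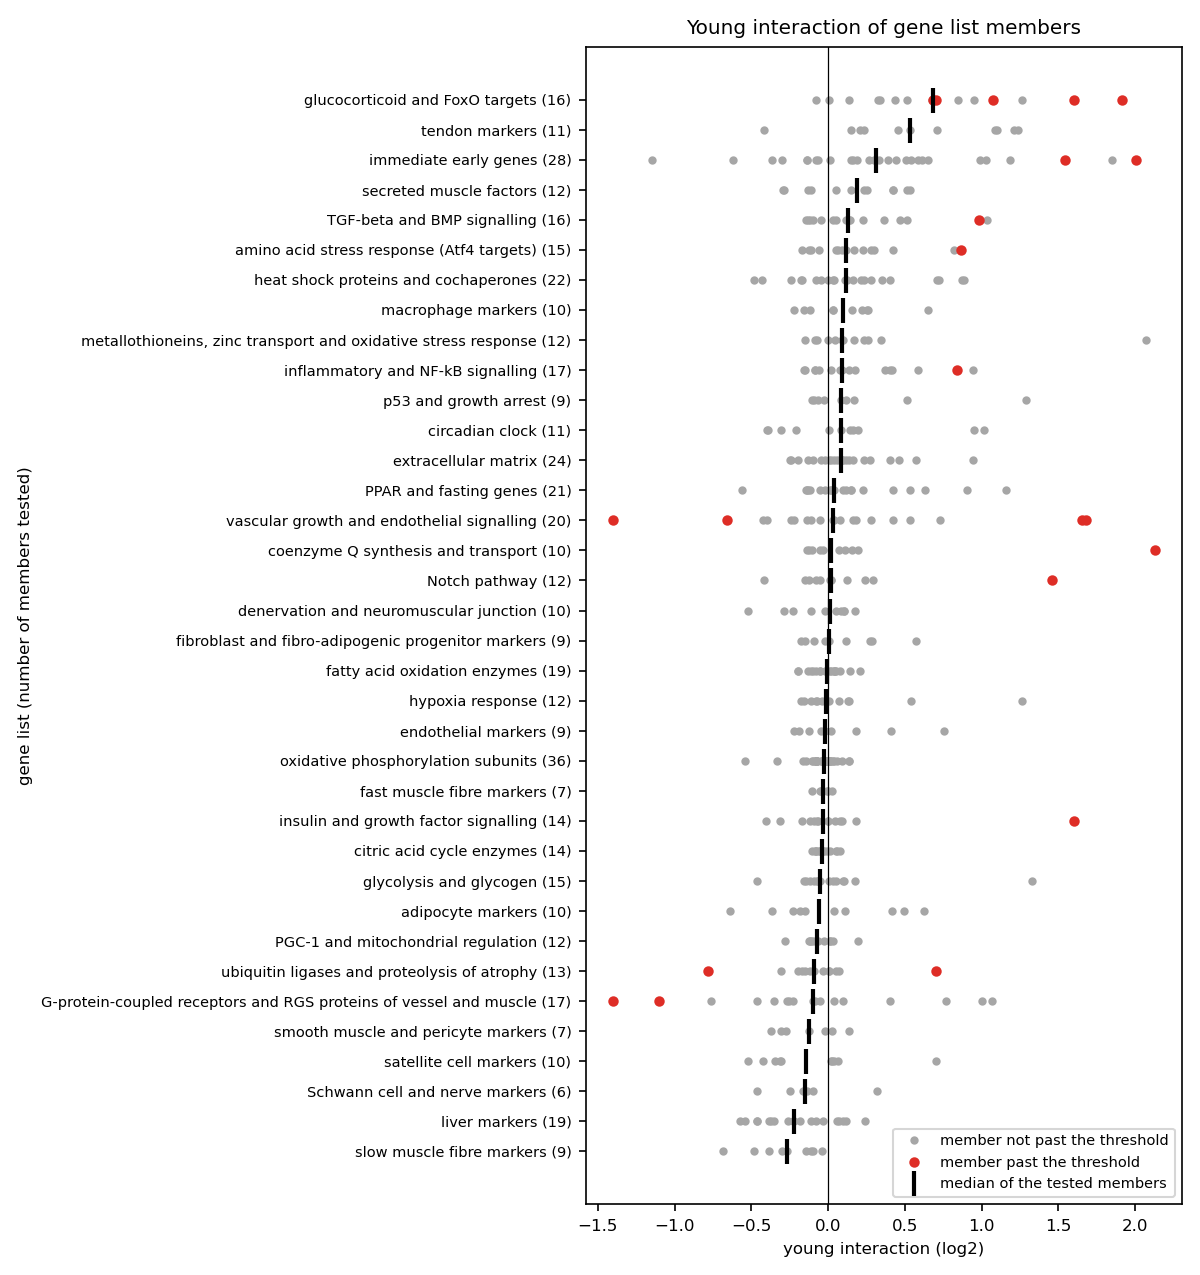
Young interaction (log2) of each measured member of the lists with at least 5 members measured, ordered by their medians. Red points are members past the threshold, and vertical bars are medians. Targets of glucocorticoids and FoxO have the highest median (0.68, 5 red points), and slow fibre markers the lowest (-0.27, none).

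Marker lists of cell and fibre types held no called gene. The 11 tendon markers measured had a median interaction of 0.54, with 10 above 0. Their mean level ran from 6.27 to 7.44 in HCR at rest, from 7.37 to 8.11 in HCR exhausted, from 6.90 to 8.02 in LCR at rest and from 7.10 to 8.08 in LCR exhausted. The lowest of these arrays was an HCR rest array. In HCR 4 of the 11 rose (Chad, Tnmd, Fmod and Cilp2), against 4.82% of all genes tested, and in LCR 1 rose, against 0.795%. At rest the median difference of the 11, HCR minus LCR, was -0.57. The 9 slow fibre markers had a median of -0.27 with 0 above 0, and levels between 9.90 and 10.4 in HCR at rest, 9.24 and 10.4 in HCR exhausted, 8.64 and 10.01 in LCR at rest and 8.79 and 10.2 in LCR exhausted. The part of tendon tissue or of slow fibres in the interaction was not tested.

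The same interaction in old rats was compared, since it shares no array with the young one, although both use 1 estimate of the spread. The young values set which 34 genes passed, but the comparison was chosen with earlier results of both ages known. In old rats 152 genes passed (1.59% of all tested), 78 higher and 74 lower in HCR. All 34 young genes had the same sign in old rats, against 56.3% of all genes tested, and 19 of them also passed there with that sign. These 19 are 55.9% of the young calls and 12.5% of the old calls. The median interaction of the 26 higher genes was 1.05 in young and 0.87 in old rats, and that of the 8 lower genes -0.91 and -0.87.

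Adamts9 was close in both ages, at 1.68 in young and 1.82 ± 0.26 in old rats, as were Hes1 (1.46 ± 0.22 in old), Junb (1.52 ± 0.36), Rnf125 (-0.87 ± 0.13) and Aplnr (-1.53 ± 0.26). Stc1 (2.21 ± 0.39 in old) and Tgif1 (1.70 ± 0.23) had larger values in old rats. Plekhf1 (0.15 ± 0.22), Rhobtb1 (0.52 ± 0.31) and Gvinp1 (-0.06 ± 0.24) were far smaller there and did not pass. The difference of the interaction between ages was itself tested, and 0 of 9558 genes passed by limma (0%). The smallest adjusted p was 0.141, and 682 genes (7.14%) had an unadjusted p below 0.05. Among the 34 genes 8 did: Gvinp1 (difference -1.11 ± 0.33, unadjusted p = 0.00186), Plekhf1 (0.87 ± 0.30, 0.00639), Irak2, Tspyl2, Rhobtb1, Tgif1, Klf15 and B3galnt1. The young values that chose the 34 genes are part of this difference. The count of 8 and the gap between the young and old medians therefore describe the choice and support nothing. In this fit no gene can be called particular to young rats.

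**Figure D5:**
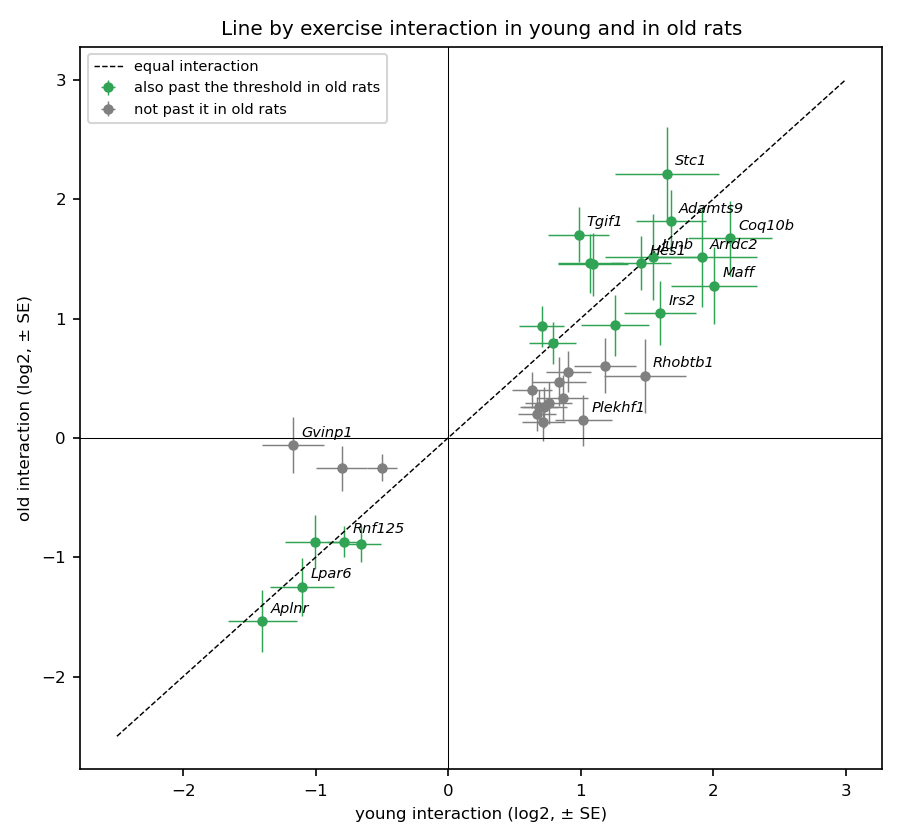
Interaction of the 34 young calls in young rats (horizontal axis) and in old rats (vertical axis), log2 ± SE of the limma model, with the line of equal values dashed. All 34 points lie in the quadrants of equal sign, and the 19 in green also passed the threshold in old rats.

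In old rats 0.816% of all genes tested were higher in HCR and 0.774% lower. Glucocorticoid and FoxO targets had a median of 0.57 there with 6 of 16 higher, and immediate early genes a median of 0.10, with 3 of 28 higher and 1 lower. Of the genes of denervation and the neuromuscular junction 4 of 10 were higher in old rats and 0 in young rats, and of the metallothionein, zinc and oxidative stress list 3 of 12 and 0. Differences between the ages in these counts were not tested. The lower one was Egr1, at -2.07 ± 0.55 in old rats against -0.62 ± 0.55 in young rats. Mt2A, not past the threshold in young rats, had an interaction of 4.18 ± 0.54 in old rats (adjusted p = 1.14e-05).

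The count of 34 depended on single arrays and on the weight given to each. With array weights it rose to 70, which include the 34. It fell to 15 without young HCR exhausted replicate 2, to 16 without young HCR rest replicate 6, to 20 without young LCR exhausted replicate 5, to 21 without young LCR exhausted replicate 3 and to 22 without young HCR exhausted replicate 5. Of the 34 genes, 13 passed without any single one of the 24 arrays and under each other alternative run, all probe sets included: Adamts9, Aplnr, Bach1, Coq10b, Gvinp1, Hes1, Irs2, Klf15, Maff, Rasd1, Rhobtb1, Rnf125 and Tinagl1. As a description of the arrays, the mean of the 26 higher genes relative to the 24 young arrays ran from 0.918 to 1.43 in HCR exhausted, from -0.280 to -0.0179 in LCR exhausted, from -0.621 to -0.215 in HCR at rest and from -0.631 to -0.429 in LCR at rest. Young HCR exhausted replicate 2 was the highest of these.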

How the data were processed

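RNA of the extensor digitorum longus was measured on 48 arrays, and 24 of them enter the young interaction. The authors deposited log2 values, with a row for each probe set and a column for each array. Per the submitters' processing notes RMA and oligo were used, with no versions, and per the series' design text Expression Console made the expression values; the sources used here do not say which of these made the table. RMA corrects background and gives all arrays like distributions, which removes a shift shared by most genes.

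Of 36685 probe sets, the 14824 that name 1 gene were used (829 give several names, 21032 none). The brightest stood for each of 14557 genes, and 9558 genes that exceeded 4.54 (the table's median) on 6 or more arrays were tested. The tool was limma 3.58.1 (R 4.3.3), with a model with a mean for each of the 8 groups over 48 arrays (40 residual and 3.77 prior degrees of freedom). All p-values are two-sided. In each of 7 contrasts they were adjusted by Benjamini and Hochberg's method over the 9558 genes, with a threshold of 0.05. Errors are standard errors (SE) of the model unless given as SD. The procedure was tested on simulated data.

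Titles carry animal numbers, so p-values measure the spread between rats. No batch, date or pairing is given, and replicate numbers follow accession order. An array has no read depth: the number of arrays limits the precision.

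The comparison, the 39 gene lists and the tests were chosen with earlier results of these data known. Named genes are the 15 largest interactions in each direction past the threshold and the 5 with the smallest p; up to 4 called members of each list, or 2 others; and Lpar6, Aplnr, Rgs4, Adamts9, Hes1, Coq10b, Tgif1, Mt2A, Rnf125 and Efna1, named earlier. Further list members are named for their role in the pathway, and were chosen after their values were seen, as were 7 called genes. Predicted genes and unnamed loci were not named. Alternatives varied the filter, the normalization, the arrays, the variance model, the choice of probe sets and a liver covariate. Sequences come from RefSeq's GRCr8 promoter table.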

Additional observations from a re-analysis of the deposited data

Results flagged for a closer look

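Among the interaction genes, single arrays stood apart from the other 5 of their group by Dixon's criterion in 7 of 136 groups tested, in 6 genes, and chance gives about 1 in 20, or 6.8. Tinagl1 was high on young HCR rest replicate 3, at 8.40 against 7.57 for the next array. Klf15 was low on young HCR exhausted replicate 1, at 7.37 against 7.69. On young LCR exhausted replicate 1 Aplnr was low, at 5.97 against 6.42, and so was Efna1, at 7.50 against 7.79. Gvinp1 was high on young HCR exhausted replicate 6, at 5.31 against 4.74, and low on young LCR rest replicate 6, at 3.72 against 4.36. B3galnt1 was low on young HCR rest replicate 2, at 5.51 against 6.09.

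The exercise response differed between HCR and LCR by a test of the difference itself in 34 genes, 26 higher and 8 lower in HCR.

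Some probe sets left out for lack of a single gene name also passed the threshold. With all probe sets in the fit, 18 of 11462 without a gene name passed (0.157%), 14 higher and 4 lower in HCR. Of the 9721 that name 1 gene 25 passed (0.257%), and of the 420 that give several names 3 did (0.714%). These 3 carry microRNA names: Mir133a with Mir3582 (interaction -2.31 ± 0.41), Mir511 under 2 spellings (1.76 ± 0.32) and Mir29c with Mir3556b (0.71 ± 0.16). The largest of the unnamed ones, probe set 17749555, had an interaction of 2.98 ± 0.44, with 3.92 in HCR and 0.94 in LCR (adjusted p = 0.000452, limma).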

How the results depend on the processing

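No result reversed. The 34 interaction genes became 23 with no filter (21 shared), 38 with a stricter one (34 shared), 39 after quantile normalization (33 shared), 36 after median centring (34 shared), 39 in young arrays alone (27 shared), 70 with array weights (34 shared), 38 with a trended robust variance model (34 shared), 34 with the mean of a gene's probe sets (34 shared), 41 without the 3 arrays of highest lower quartile (31 shared), 38 with the liver covariate (34 shared) and, added after seeing the data, 46 with all probe sets, where 25 name 1 gene (24 of the 34 genes passed). In young arrays alone Arrdc2, Arrdc3, Gpr157, Il6r, Lpar6, Snrpd1 and Zrsr2-ps1 lost their call. Of the 70 with weights 25 were lower in HCR, against 8 of 34. Other counts changed by over 1.5 times. Without a filter HCR and LCR differed at rest in 82 genes in place of 145, and the old interaction had 65 in place of 152. Quantile normalization left 94 at rest, split 47 to 47 in place of 110 to 35, gave 276 higher and 198 lower after the run in place of 363 and 122, and 121 higher and 67 lower for the old interaction in place of 78 and 74. Without a filter the old split was 44 to 21, and without the 3 arrays 73 to 38. Weights gave 186 genes for the LCR response in place of 90, 268 at rest, 792 after the run and 3 for the age difference (Podxl2, Tcp11l1 and Tekt1) in place of 0. Without the 3 arrays 244 differed at rest. The cause was not tested.

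Leaving out 1 young array at a time gave 15 to 51 genes for the interaction, with 51 without young HCR exhausted replicate 3. The HCR response ran from 622 to 860, the LCR response from 45 (without young LCR exhausted replicate 2) to 141 (without young LCR rest replicate 1), with 56 and 58 without young LCR exhausted replicates 1 and 6 and 52 and 48 without young LCR rest replicates 2 and 5. The difference at rest ran from 45 (without young LCR rest replicate 6) to 180, with 83 and 88 without young HCR rest replicates 1 and 6 and 68 without young LCR rest replicate 5. The difference after the run ran from 368 to 505, the old interaction from 132 to 196 and the age difference from 0 to 1 (Podxl2, without young LCR exhausted replicate 1). Of the 34 genes, 21 lost their call without at least 1 array, and the highest adjusted p was 0.125, for Map3k6. No paired analysis was possible because no animal number in the titles is shared between arrays, and replicate numbers follow accession order. The number of arrays limits the precision: the median SE of an interaction was 0.17, and the smallest called was 0.50 in size.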
